A study of Homo sapiens with 7 samples.

Results

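Nascent transcription was followed at 5 human genes that respond to growth factors or stress: SPRY1 and DUSP5, which act as feedback inhibitors of growth factor signalling, and the immediate early genes NR4A1, JUN and ATF3. The genes were picked by name, with earlier results of these data known, from genes whose signal differed between cells with and without CFAP20, so their differences between those groups are described and not tested. They are 5 of 2088 protein-coding genes that could be placed, by genome position and strand, inside the deposited windows around replication origins. All 5 were above the low-signal limit that 1760 of those genes met.

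Growth factors bind receptor tyrosine kinases at the cell surface, and the signal passes through RAS, RAF, MEK and ERK kinases to the nucleus. Within minutes it switches on immediate early genes, which need no new protein synthesis and many of which encode transcription factors. A second set of induced genes damps the same pathway: Sprouty proteins act between the receptor and RAF, and dual-specificity phosphatases remove the activating phosphates from MAP kinases.

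The assay was BrU-seq: cells took up 2 mM bromouridine for 30 min, and the RNA that had incorporated it was pulled down with an antibody before sequencing. All cells were RPE1, an immortalised retinal pigment epithelial line, with the labels RPE1 iCas9 p53/puro-dKO, so every group, the wild type included, carried an inducible Cas9 and the p53 and puro knockouts. There were 3 libraries of WT, 3 of CFAP20-KO and 1 of CFAP20-KO + CFAP20-GFP, here called the rescue. CFAP20 is a protein of cilia and flagella, and its own gene was not analysed here. Whether each CFAP20-KO library came from the same clone, and whether replicates were separate cultures, is not stated, so their spread may be technical.

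A number in column names of the deposited splice table groups the libraries into 3 runs: WT replicate 1 with CFAP20-KO replicate 1 (first run), WT replicate 2 with the rescue (second run), and WT replicate 3 with CFAP20-KO replicates 2 and 3 (the third run). What the number stands for is not stated. The signal is strand-specific coverage in bins of 200 bp on the authors' own scale. It comes in whole steps of a size particular to each library, smallest for WT replicate 2 (0.0733) and largest for CFAP20-KO replicate 1 (0.393), where the same signal rests on the fewest steps. CFAP20-KO replicates 2 and 3 were closer to each other (Pearson r = 0.998 of log2 body signal over 1760 genes) than any other pair of libraries (at most 0.969), and genes are not independent replicates. The line's markers could hardly be checked: of 12 retinal pigment epithelium markers only RLBP1 was placed, at 0.126 to 0.362 in WT and 0.0166 to 0.109 in CFAP20-KO, close to the low-signal limit of 0.0826.

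Promoters of 4 of the 5 genes are in the RefSeq table of GRCh38.p14, and 4 windows are shown because they are where transcription of these genes can start. Each runs from 250 bases before a RefSeq start to 50 after it. Capitals mark words found on either strand: TGACNTCA (a cyclic AMP response element-like word, also bound by JUN and ATF family dimers), TGANTCA (the AP-1 word), CCGGAA (an ETS core), the CCAAT box, the TATA box word TATAAA, the MEF2 site (a word of MEF2 factors known from the JUN promoter) and the CArG box of serum response factor. None of these words overlaps another in the windows shown. The SPRY1 and NR4A1 windows hold none of them.
SPRY1, chr4:123396545-123396844 (+): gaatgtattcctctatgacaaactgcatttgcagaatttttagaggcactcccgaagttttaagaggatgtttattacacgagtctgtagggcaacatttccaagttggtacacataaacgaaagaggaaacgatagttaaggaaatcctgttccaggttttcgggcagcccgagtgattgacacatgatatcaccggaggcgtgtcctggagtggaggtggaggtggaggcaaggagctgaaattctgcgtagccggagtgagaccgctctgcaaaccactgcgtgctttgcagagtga
NR4A1, chr12:52037465-52037764 (+): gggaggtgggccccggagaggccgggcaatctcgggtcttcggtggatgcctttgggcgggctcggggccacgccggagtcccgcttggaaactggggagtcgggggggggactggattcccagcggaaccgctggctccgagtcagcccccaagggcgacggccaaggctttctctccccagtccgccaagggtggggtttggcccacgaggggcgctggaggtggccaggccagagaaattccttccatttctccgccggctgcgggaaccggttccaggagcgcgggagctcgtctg
JUN, chr1:58783998-58784297 (-): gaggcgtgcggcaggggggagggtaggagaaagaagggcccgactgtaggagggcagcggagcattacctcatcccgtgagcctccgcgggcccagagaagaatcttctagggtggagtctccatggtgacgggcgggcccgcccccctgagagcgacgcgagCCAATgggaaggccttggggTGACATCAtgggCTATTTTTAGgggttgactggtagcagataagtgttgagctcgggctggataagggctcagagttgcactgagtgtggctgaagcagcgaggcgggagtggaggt
ATF3, chr1:212565157-212565456 (+): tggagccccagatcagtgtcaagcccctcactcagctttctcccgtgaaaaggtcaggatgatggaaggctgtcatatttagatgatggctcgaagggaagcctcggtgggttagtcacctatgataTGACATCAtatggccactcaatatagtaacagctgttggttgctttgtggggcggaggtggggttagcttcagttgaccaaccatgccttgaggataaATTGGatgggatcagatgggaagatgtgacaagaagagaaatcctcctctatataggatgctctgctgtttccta

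The JUN window and the distal ATF3 window both carry TGACATCA, 67 and 123 bases before the RefSeq start. That ATF3 start lies 43354 bases before the canonical start of the gene body read here. No RefSeq window covers the canonical ATF3 start. A TGACNTCA word lies in 7.72% of all 35116 windows of the table. The JUN window also holds CCAAT on its own strand and a MEF2 site, which occur in 34.6% and 2.99% of all windows. The ATF3 window holds CCAAT on the opposite strand, printed as ATTGG. The AP-1 word, the ETS core, the TATA box word and the CArG box are in none of the 4 windows and in 7.71%, 17.2%, 11.5% and 1.29% of all. A second SPRY1 window (chr4:123398136-123398435) holds CCGGAA, as does a second NR4A1 window (chr12:52022582-52022881), and a second ATF3 window (chr1:212614768-212615067) holds TATAAA. A matching word is not a measured binding site.

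Levels of the 5 genes in WT cells spanned more than 2 orders of magnitude. Body signal, the mean over the bins of a gene and so a value per length, was 294 ± 78.3 (SD, n = 3) for JUN, 117 ± 40.1 for DUSP5, 13.5 ± 2.00 for SPRY1, 4.93 ± 1.42 for ATF3 and 1.41 ± 0.649 for NR4A1. JUN and DUSP5 stood above 99.8% and 98.8% of tested genes by WT mean, SPRY1 above 87.3%, ATF3 above 64.2% and NR4A1 above 24.9%. No 2 neighbours in this order overlapped between WT libraries. In CFAP20-KO the order was the same, but the ranges of SPRY1 and ATF3 overlapped.

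SPRY1 (chr4:123396795-123403755, + strand, 3 exons) encodes a Sprouty protein that restrains receptor signalling to RAS and RAF. Its body signal was 15.8, 11.9 and 12.9 in WT replicates 1, 2 and 3, and 7.78, 5.16 and 4.73 in CFAP20-KO replicates 1, 2 and 3. Every CFAP20-KO library lay below every WT library, with both libraries of the third run the lowest. On the log2 scale the groups differed by -1.21, against an SD within groups of 0.305. Within the first run the change was -1.01, and within the third run it was -1.31 and -1.43.

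The lower SPRY1 signal was seen from the start to the end of the gene. The bin of the first exon held 9.30, 4.33 and 8.21 in WT and 1.18, 1.44 and 1.44 in CFAP20-KO. The first intron held 37.6, 14.3 and 29.0 in WT and 10.1, 6.35 and 7.14 in CFAP20-KO. In the last exon, which carries the coding sequence, WT had 12.8, 15.7 and 14.4, and CFAP20-KO had 6.15, 7.03 and 5.68. Groups did not overlap in these parts, nor in the second intron. In the 1-bin second exon CFAP20-KO replicate 1 (23.6) lay inside the WT range (12.5 to 32.4). Almost no signal preceded the start: at most 0.0147 over 2 kb in any library.

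DUSP5 (chr10:110497907-110511533, + strand, 4 exons) encodes a nuclear phosphatase that inactivates ERK. Its body signal was 162, 85.4 and 103 in WT replicates 1 to 3 and 82.8, 49.8 and 44.6 in CFAP20-KO replicates 1 to 3. The groups did not overlap, but the lowest WT library and the highest CFAP20-KO library, of different runs, were close. The log2 difference was -0.99 (SD within groups 0.474), and the within-run changes were -0.97 in the first run and -1.05 and -1.21 in the third. Among all tested genes, 4.94% had all 3 CFAP20-KO libraries below all 3 WT libraries, as these 2 of the 5 genes did, and 7.72% among the 246 tested genes no longer than DUSP5. Since the genes were picked on this contrast, nothing is read from that count.

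DUSP5 signal was not even along the gene, and its distribution differed between libraries. The first intron held 181, 85.9 and 85.9 in WT and 90.2, 42.2 and 37.8 in CFAP20-KO. The second intron held 114, 90.1 and 49.5 in WT and 78.9, 30.3 and 29.3 in CFAP20-KO. The third intron held 263, 92.1 and 229 in WT and 90.4, 92.8 and 81.2 in CFAP20-KO. The third intron was thus at least 2 times the second in WT replicates 1 and 3 and CFAP20-KO replicates 2 and 3, and near it in WT replicate 2 and CFAP20-KO replicate 1. Groups overlapped in each of the 3 introns, and within-run changes were negative in all of them. The last exon had the smallest of these differences: 101, 76.3 and 91.6 in WT, and 79.0, 58.6 and 49.3 in CFAP20-KO, with overlap, and within-run changes of -0.35, -0.64 and -0.89.

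NR4A1 (chr12:52051442-52059503, + strand, 7 exons), an orphan nuclear receptor also called NUR77, had the lowest level. Its body signal was 1.87, 0.671 and 1.70 in WT and 1.22, 1.06 and 0.986 in CFAP20-KO. WT replicates 1 and 3 were above all CFAP20-KO libraries and WT replicate 2 was below all of them, so the groups overlapped and the log2 difference was -0.24 (SD within groups 0.546). Within runs the changes were -0.58, -0.64 and -0.74; the second run has no CFAP20-KO library, so these do not involve WT replicate 2. The sign depended on the region: over the first 3 kb the group difference was 0.41. Without WT replicate 1 the difference over the body was 0.0101.

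Much NR4A1 signal lay before the canonical start. The 2 kb after the RefSeq start whose window is printed above held 11.2, 1.55 and 5.17 in WT and 4.48, 1.86 and 2.99 in CFAP20-KO, more than the canonical body in each of the 6 libraries. The stretch from that start to the canonical start held 4.98, 0.861 and 1.63 in WT and 3.40, 0.770 and 1.02 in CFAP20-KO. Groups overlapped in both. Within the body the highest bin lay 6.56 to 6.96 kb from the start in 5 libraries, and at 1.56 kb in CFAP20-KO replicate 1.

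ATF3 (chr1:212608761-212620775, + strand, 4 exons) encodes a stress-induced factor of the CREB family. Its body signal was 5.94, 3.30 and 5.54 in WT and 5.24, 2.15 and 2.09 in CFAP20-KO. CFAP20-KO replicates 2 and 3 were below every WT library, whereas CFAP20-KO replicate 1 was inside the WT range. The log2 difference was -0.72 (SD within groups 0.611), with within-run changes of -0.18 in the first run and -1.33 and -1.37 in the third. Without CFAP20-KO replicate 3 or 2 it was -0.49 or -0.51, and without CFAP20-KO replicate 1 it was -1.14.

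Little ATF3 signal lay after the distal start whose window is printed above. The 3 kb after the distal start held 0.540, 0.181 and 0.697 in WT and 0.131, 0.0853 and 0.180 in CFAP20-KO, a small part of the body signal, with CFAP20-KO replicate 3 the highest CFAP20-KO library and just below WT replicate 2. From there to the canonical start no library exceeded 0.0912. Within the gene, the third intron was the part over several bins with the most signal in WT replicates 1 and 3 (13.2 and 13.8) and CFAP20-KO replicates 1 and 3 (9.24 and 3.27). In WT replicate 2 and CFAP20-KO replicate 2 it held 5.17 and 3.73, and the last exon held more (5.66 and 4.05).

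JUN (chr1:58780791-58784047, - strand, 1 exon), a subunit of the AP-1 transcription factor, was higher in one run and lower in the other. Its body signal was 365, 210 and 306 in WT and 669, 214 and 228 in CFAP20-KO. CFAP20-KO replicate 1 was the highest of the 6 libraries, and CFAP20-KO replicates 2 and 3 lay between WT replicates 2 and 3. The log2 difference of the groups was 0.16 (SD within groups 0.715), and it was -0.0337 with libraries centred on their medians, -0.0643 without WT replicate 2 and -0.37 without CFAP20-KO replicate 1. The change was 0.87 in the first run and -0.52 and -0.42 in the third.

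The excess of JUN signal in CFAP20-KO replicate 1 lay in the first 2.2 kb of the gene and the bin after it. In the first 2.2 kb WT replicate 1 had 460 and CFAP20-KO replicate 1 had 927. In the next bin they had 508 and 765. In the last 0.8 kb the same libraries had 141 and 94.8, so the direction turned within the gene. In the third run both stretches were lower in CFAP20-KO: 230 and 251 against 333 in the first 2.2 kb, and 198 and 180 against 245 in the last 0.8 kb. In the 5 kb past the end CFAP20-KO replicate 1 was again above WT replicate 1 (7.38 against 4.92). There the third run had 13.3 and 14.7 in CFAP20-KO against 14.7 in WT.

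**Figure D1:**
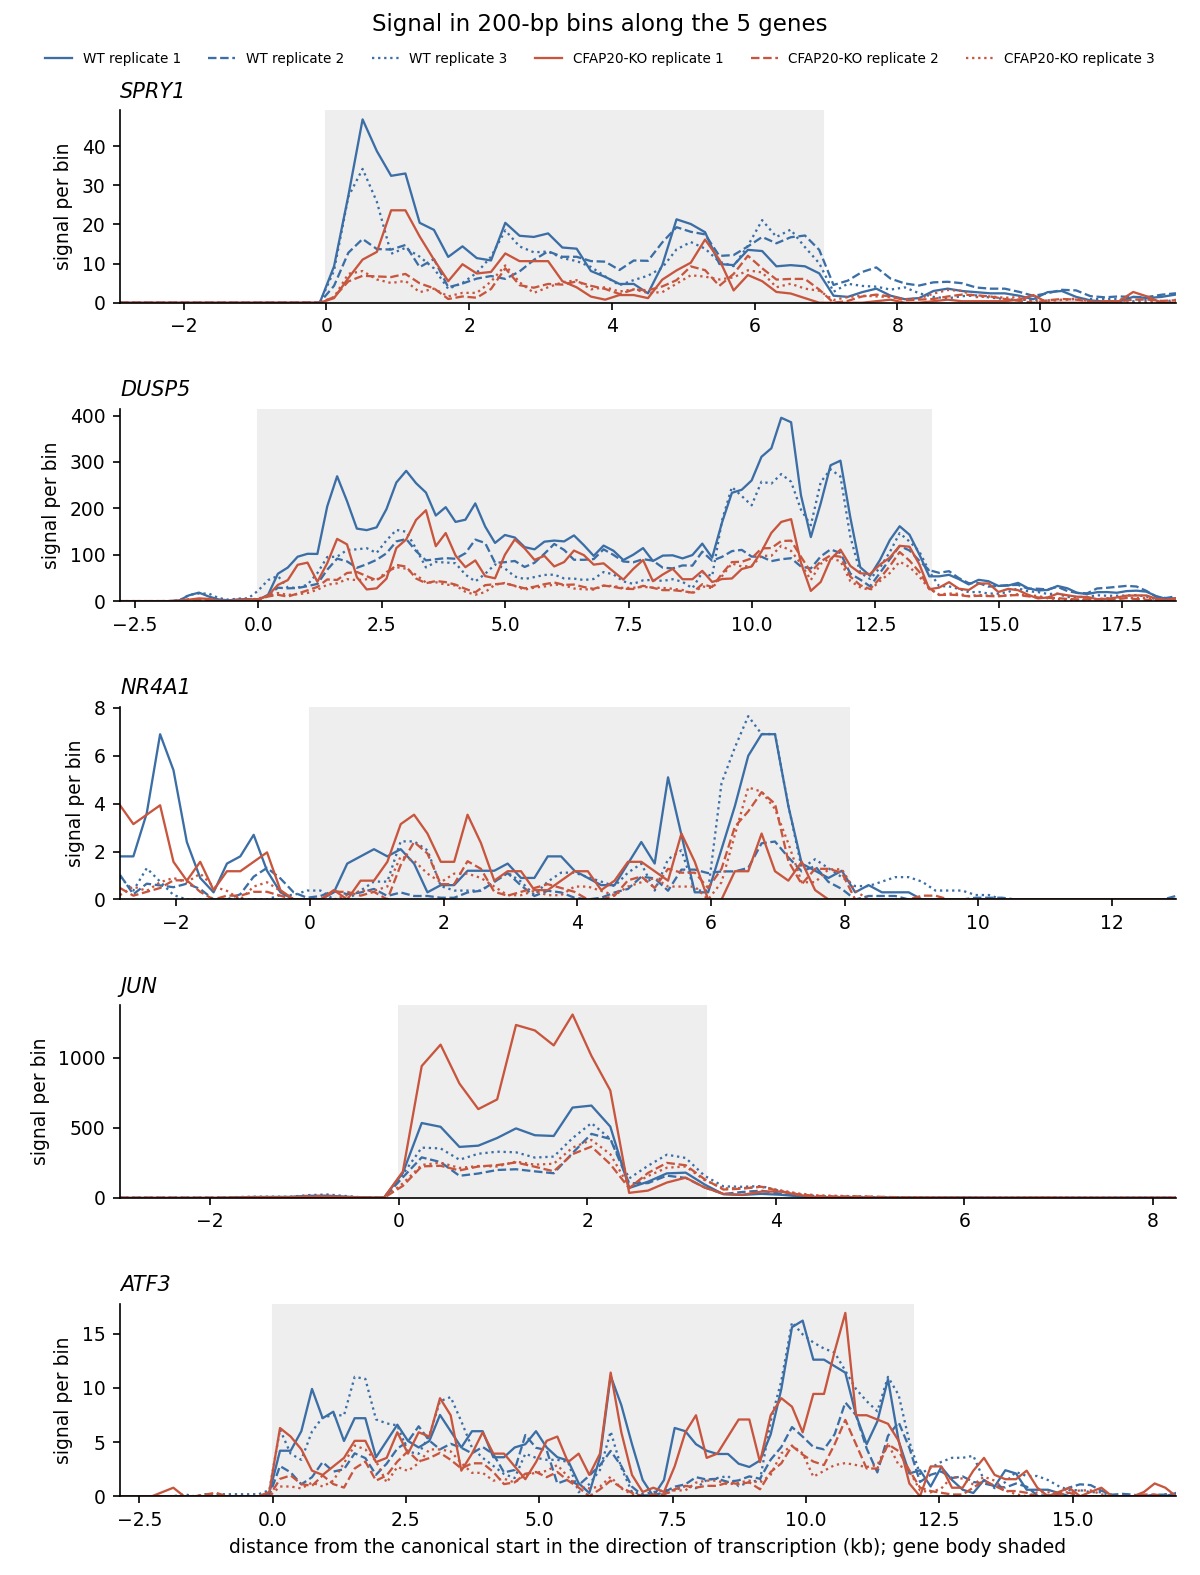
Signal per 200-bp bin (scaled coverage) against distance from the canonical start in kb, 1 line per WT (blue) or CFAP20-KO (red) library, gene body shaded; vertical scales differ between panels. CFAP20-KO replicate 1 reaches 1306 in JUN. In the last DUSP5 intron the highest bin is 395, 111 and 284 in WT replicates 1 to 3. In CFAP20-KO replicates 1 to 3 it is 177, 130.4 and 119.

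The distribution of signal was compared as the log2 ratio of 1 region of a gene to another, in 2 ways. The first 2 kb against the rest of the gene differed between groups by less than the SD within groups for SPRY1 (-0.17 against 0.682), DUSP5 (0.04 against 0.277), JUN (0.28 against 0.672) and ATF3 (-0.29 against 0.365), on the log2 scale. For NR4A1 the difference was 0.78 against 0.483, but -0.52 with the first 1 kb. The SD within groups holds the differences between runs. Within runs the first 2 kb of SPRY1 changed against the rest by -0.06, -0.56 and -0.47 and the first 1 kb by -0.62, -0.83 and -0.63. For ATF3 these values were -0.53, -0.84 and -0.38 with 2 kb and -0.47, -0.47 and -1.10 with 1 kb. Both genes were thus below 0 in all 3 comparisons. NR4A1 was above 0 in all 3 with 2 kb (1.09, 0.36 and 0.30) and had both signs with 1 kb. DUSP5 and JUN had both signs with either. The share of all tested genes below 0 in this ratio was not counted. Their median group change was -0.02 over the first 3 kb, beside 0.17 over the body. Signal in 5 kb past the end against the body differed by -0.27, -0.24, 0.31 and 0.05 for SPRY1, DUSP5, JUN and ATF3, again less than the SD within groups. Within runs these 4 genes had values of both signs. For NR4A1 it differed by -0.73, but the level past its end was 0.239 or less in every library and 0 in CFAP20-KO replicate 1, so that ratio depends on the 0.0826 added to each value.

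4 of the 5 genes, all but JUN, were lower in CFAP20-KO within both runs that hold the groups (taking the mean of CFAP20-KO replicates 2 and 3), against 21.6% of all tested genes. Over the first 3 kb it was 3 of the 5 genes and 844 of the 1760 tested, in place of 381 by body signal. The 5 genes are also short, at 3257 to 13627 bp, and the median tested gene was 50432 bp. Among the 246 tested genes no longer than DUSP5, a comparison added after the values were seen, 51.2% were lower in both runs. Their median change was -0.16 in the first run and -0.35 in the third, against 0.08 and 0.27 for longer genes. What part length has in the lower signal of the 5 genes was not tested.

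The places of the 5 genes among those 246 short genes are given as a description, since a low place of a gene picked for lower signal is fixed by that choice. For SPRY1, 4.88%, 4.88% and 4.47% of the short genes had a lower change in the 3 within-run comparisons. For DUSP5 the shares were 6.10%, 12.6% and 10.2%. NR4A1 lay further in, at 22.8%, 29.7% and 24.0%. ATF3 was in the middle in the first run (49.2%) and low in the third (4.47% and 5.28%), and JUN was high in the first (92.7%) and in the middle in the third (37.8% and 45.1%). WT replicate 2 was the lowest WT library for all 5 genes, as it was for 34.5% of all tested genes and 76.4% of the short ones.

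**Figure D2:**
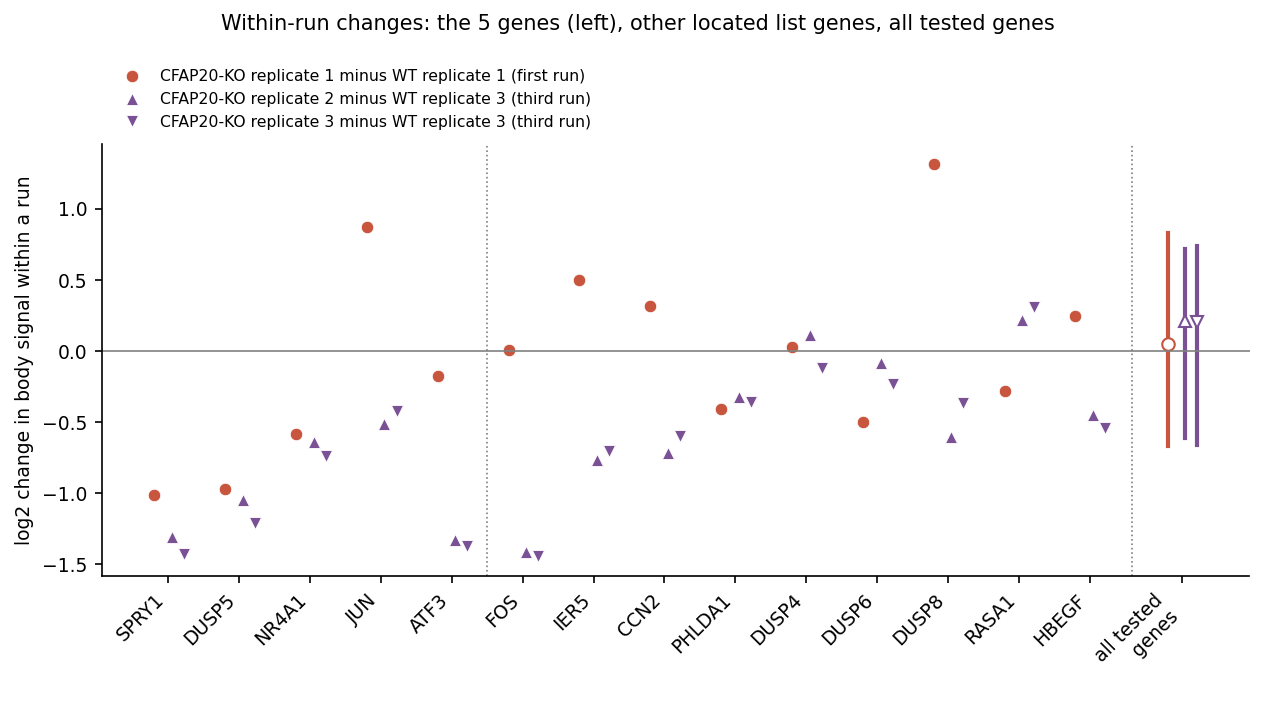
Log2 change in body signal of CFAP20-KO against the WT library of the same run, for the 5 genes (left), the other 9 placed genes of the feedback and immediate early list, and all 1760 tested genes (open symbols, median; bars, 10th to 90th percentile). SPRY1, DUSP5, NR4A1 and ATF3 are below 0 in all 3 comparisons; JUN is at 0.87 in the first run and below 0 in the third.

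The other genes of the pathway came from a textbook list of 63 feedback and immediate early genes, of which 14 were placed and tested, the 5 included. In the comparison of the 6 libraries with limma, no gene of the list and none of the 1760 genes passed an adjusted p of 0.05 (0% called in either direction; 148 genes had an unadjusted p under 0.05). With the run as a covariate, which gives WT replicate 2 no weight, 4.83% of all tested genes and 15.4% of the short ones were called lower and 6.31% of all were called higher. The 5 genes are part of both fits, but no call is read for them, since they were picked on this contrast.

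Of the 9 list genes that were not picked, none passed in either model. FOS and DUSP8 passed only in fits that block on replicate numbers. The median log2 change of the 9 was -0.05 (-0.20 with the run covariate), beside 0.17 (0.13) for all tested genes. FOS, IER5, CCN2, PHLDA1 and DUSP6 are no longer than DUSP5. Tested genes of that length had median within-run changes, another measure, of -0.16 in the first run and -0.35 in the third. What part length has in the list median was not tested. The feedback phosphatases DUSP4 and DUSP6, a nuclear and a cytoplasmic ERK phosphatase, changed by 0.01 ± 0.137 (SE) and -0.30 ± 0.147 with the run covariate in limma (adjusted p = 0.9495 and 0.214; lowest over 17 alternatives 0.419 and 0.0904). FOS, the partner of JUN in AP-1, is named here after its values were seen: 21.8, 12.4 and 7.79 in WT, and 21.9, 2.87 and 2.81 in CFAP20-KO. It was level within the first run (0.01) and lower within the third (-1.41 and -1.45), and did not pass in limma (adjusted p = 0.174 with the run covariate, 5.98e-04 to 0.9997 over all alternatives). IER5, CCN2, DUSP8 and HBEGF were, like JUN, above WT in the first run (by 0.25 to 1.32) and below it in both libraries of the third. That order, which FOS also has by its 0.01, holds for 10.8% of all tested genes and 22.4% of the short ones.

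Of 43 genes of the cascade from receptors to MAP kinases and their transcription factors, 9 were placed and 8 were tested. EGFR, SOS1, BRAF, MAP2K2, RPS6KA1 and MAPK8 passed in neither model, with changes between -0.81 for RPS6KA1 and 0.50 for SOS1 under the run covariate. MAP2K6 was below the low-signal limit. Markers of other cell types gave little: of 20 epithelial, mesenchymal, neuronal and haematopoietic markers, ELF3, MAP2 and SYT1 were placed. ELF3 was called lower with the run covariate (-0.96, adjusted p = 0.0477 in limma), as was RLBP1 (-1.22, adjusted p = 0.0318). They passed in 2 and 5 of 17 alternatives. These calls count CFAP20-KO replicates 2 and 3, which were nearly alike, as separate libraries. With the mean of those replicates RLBP1 passed and ELF3 did not. ELF3 too was near the low-signal limit, at 0.509, 0.0511 and 0.283 in WT and 0.226, 0.0776 and 0.131 in CFAP20-KO. WT replicate 2, to which the run covariate fit gives no weight, lay below all CFAP20-KO libraries for ELF3. MAP2 missed the threshold with the run covariate (-0.87, adjusted p = 0.0512) and passed in 3 of 17 alternatives, and SYT1 passed in none (0.09, adjusted p = 0.889). Their part in the values of the 5 genes was not tested.

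Genes beside the 5 were also read. Within 300 kb there were 9 tested neighbours: SMC3 and SMNDC1 beside DUSP5, ACVR1B, ATG101, SMIM41 and TAMALIN beside NR4A1, MYSM1 and OMA1 beside JUN, and PACC1 beside ATF3. Their log2 differences between groups were -0.19 to 0.27. Within runs the neighbours were less even. SMC3, whose start is 69.8 kb from that of DUSP5, differed by 0.10 between groups, by -0.60 in the first run and by 0.21 in the third, and SMNDC1 differed by -0.37 in the first run and 0.03 in the third. TAMALIN, beside NR4A1, was at -0.08 in the first run and -0.83 in the third. Over 10 Mb around each gene, 12 to 29 tested genes had medians of -0.12 (SPRY1) to 0.28 (JUN) between groups. The 12 around SPRY1 had a median of -0.47 in the first run, where SPRY1 itself was at -1.01, and of -0.01 in the third, where it was at -1.31 and -1.43.

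The 6-library profiles of SPRY1 and DUSP5 were alike. Among 880 genes of above-median signal, DUSP5 had the profile nearest to SPRY1, with a root mean square difference of 0.200 on the log2 scale after each gene was centred on its own mean (median of all genes 0.844). NRSN2 (0.226) and ZNF304 (0.233) came next. For DUSP5 the nearest were ZNF460 (0.136), NRSN2 (0.150) and ZNF304 (0.175). For ATF3 they were ZNF256 (0.169), GCC1 (0.179) and ZNF460 (0.180). NR4A1 was nearest to PRR13 (0.0442), BUD31 (0.0805) and S100A13 (0.0917), and JUN to ERGIC1 (0.128), SNAP29 (0.156) and BCL6 (0.182), none of which is a member of the list. The 6 points share libraries and runs, and SPRY1 and DUSP5 were both picked for a lower signal, so this is a description.

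**Figure D3:**
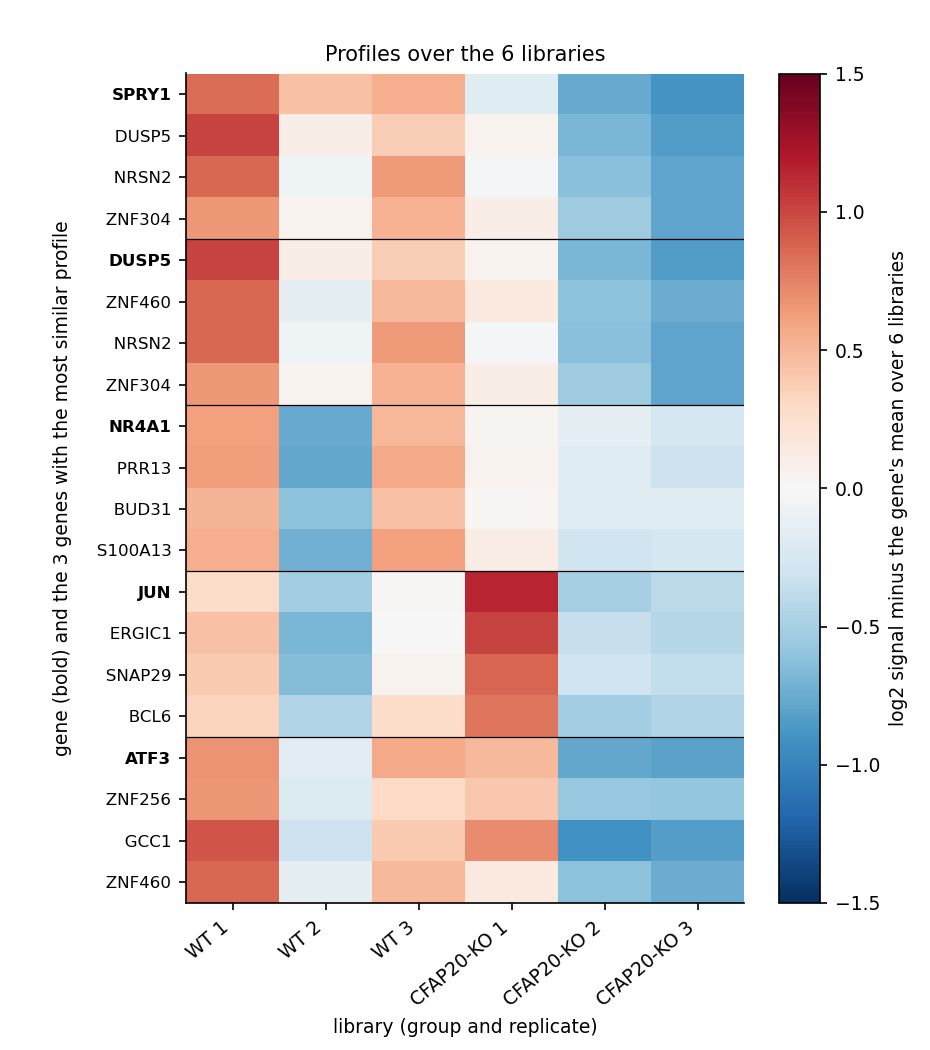
Colour gives log2 body signal minus the gene's own mean over the 6 libraries, for each of the 5 genes (bold) and, under it, the 3 genes with the nearest profile; columns are libraries. SPRY1 and DUSP5 are highest in WT replicate 1 and lowest in CFAP20-KO replicate 3, JUN is highest in CFAP20-KO replicate 1, and NR4A1 is lowest in WT replicate 2.

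Splicing of these genes could be read for 5 introns, 1 of SPRY1 and 4 of DUSP5, in the deposited splice index, a fraction from 0 to 1. The middle pair of DUSP5 introns comes from another transcript, and both lie inside the second intron of the canonical 4-exon gene. NR4A1, JUN and ATF3 have no intron there. The first SPRY1 intron (chr4:123396932-123397610) had an index of 0.473, 0.617 and 0.427 in WT, 0.606, 0.452 and 0.621 in CFAP20-KO and 0.823 in the rescue. Within runs it was higher in CFAP20-KO in each comparison, by 0.133 in the first run and 0.0246 and 0.194 in the third. The medians of all introns with a value were -0.00605, 0.0248 and 0.0156 in these comparisons. Of those introns, 88.6%, 49.9% and 92.9% had a lower difference, so the 0.0246 was at the median. The rescue was 0.206 above WT replicate 2. The first DUSP5 intron (chr10:110498500-110502720) had 0.480, 0.454 and 0.646 in WT, 0.436, 0.471 and 0.514 in CFAP20-KO and 0.506 in the rescue. Groups overlapped in all 5 introns, where 11.1% of 6537 introns of the table did not.

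Within runs, the first 3 DUSP5 introns in the table were lower in CFAP20-KO in each comparison. In the first run 37.3%, 23.0% and 21.0% of all introns with a value had a still lower difference. For the third run these shares were 3.15%, 4.19% and 4.75% with CFAP20-KO replicate 2. With CFAP20-KO replicate 3 they were 6.74%, 2.92% and 2.19%. The intron chr10:110503490-110506934 had 0.234, 0.244 and 0.512 in WT and 0.125, 0.367 and 0.311 in CFAP20-KO, a difference of -0.109 in the first run and of -0.145 and -0.202 in the third. The short intron before it (chr10:110502869-110503432) had 0.175, 0.259 and 0.495 in WT and 0.0753, 0.340 and 0.309 in CFAP20-KO. WT replicate 3 was the highest of the 7 libraries in each of these 3 introns, and both comparisons of the third run use it. The last DUSP5 intron (chr10:110507154-110510019) had 0.466, 0.333 and 0.645 in WT and 0.533, 0.697 and 0.598 in CFAP20-KO, with differences of 0.0664, 0.0518 and -0.0471. The number of reads behind each index is unknown.

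**Figure D4:**
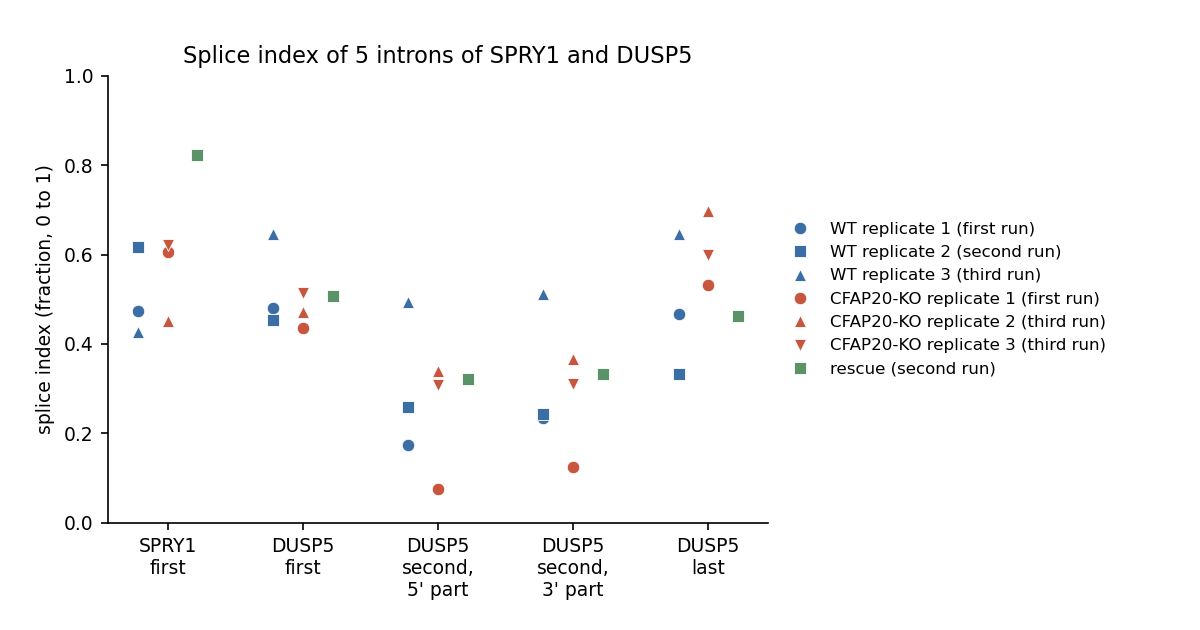
Splice index (fraction from 0 to 1) of the introns of SPRY1 and DUSP5 in the table, 1 point per library, colour by group and shape by run. WT and CFAP20-KO overlap in each intron, and the rescue is highest for the first SPRY1 intron at 0.823.

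The rescue library was read in start-site windows, which carry no gene names and were matched to the genes by their coverage in the 6 other libraries. In these windows SPRY1 had 15.7, 11.7 and 12.5 in WT, 7.12, 5.02 and 4.72 in CFAP20-KO and 15.6 in the rescue. The rescue lay inside the WT range and above all CFAP20-KO libraries, 0.42 above WT replicate 2 of its own run on the log2 scale. The second run has no CFAP20-KO library, so each comparison of the rescue with CFAP20-KO, here and below, is between runs. DUSP5 had 163, 85.4 and 103 in WT, 83.5, 49.7 and 44.2 in CFAP20-KO and 76.6 in the rescue. Here the rescue was below all WT libraries, below CFAP20-KO replicate 1, above CFAP20-KO replicates 2 and 3, and -0.16 from WT replicate 2.

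NR4A1 was 1.08 in the rescue and 0.632 in WT replicate 2, a log2 difference of 0.70. ATF3 was 3.63 and 3.20, a difference of 0.18. JUN was 436 and 207, a difference of 1.07, so the rescue exceeded all 3 WT libraries (at most 386) but not CFAP20-KO replicate 1 (722). The background was 318 tested genes, matched only at their own canonical start, over a shorter stretch and with summed signal within 10%. SPRY1 and DUSP5 are among them. NR4A1, JUN and ATF3 are not, since their windows came from the wider search used for the 5 genes. The median difference of the 318 was 0.17, with 0.34 for the 59 of them no longer than DUSP5. Of those 59, 55.9% had a lower difference than SPRY1, 23.7% than DUSP5, 76.3% than NR4A1, 88.1% than JUN and 40.7% than ATF3. There is 1 rescue library, so these differences have no replicate check.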

How the data were processed

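BrU-seq libraries of RPE1 cells (3 WT, 3 CFAP20-KO, 1 rescue) were analysed. Per the submitters' processing notes, reads were handled with STAR 2.7.7a and genome hg38, beside HOMER 4.8.2, R 4.0.5, SAMtools 1.11, Trim Galore 0.6.5 and FastQC 0.11.9. Settings were not given in the sources used here, nor was the order of steps. The members and gene lists were chosen with earlier results of these data known.

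Signal, a strand-specific coverage in bins of 200 bp that the authors scaled in a way not stated, was deposited for 100 kb on either side of replication origins and of start sites. Coverage steps are not reads, so no count model or counting interval was used. Splice indices were deposited as a fraction (0 to 1) for each intron, with unknown depth. The differences the authors give beside them, a signed score, equalled those of the indices. From GENCODE 44, coding genes over 3 kb whose strand held no other coding gene for 2 kb around were sought in origin windows. Of 14859, 2088 were found; long genes needed 10 kb of the body covered, and at most 100 kb was used. Origin and start-site bins are offset by up to 1 bin, so start-site windows were matched by correlation of log profiles rather than by equal bins (lowest r over 6 libraries at least 0.95, next window at most 0.9). For the 5 genes it was 0.977 to 0.996, with the next window at most 0.775. The body signal of the 5 genes in these windows was 0.904 to 1.11 times that in the origin windows.

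Changes are on the log2(signal + 0.0826) scale, the pseudocount being the 10th percentile of non-zero values, which understates changes of low genes. limma tested the 1760 genes whose mean signal reached this value, in version 3.58.1 under R 4.3.3 (trend, robust, statmod 1.5.0), Benjamini-Hochberg at 0.05, without covariates, after the script was tested on simulated data. Members stay in these fits and in counts over the list of 14, but none of their calls is read. By rule, named genes were the 5 members, list genes that passed in either model, located cascade genes (2 are not reported here) and, for each member, the 3 genes with the nearest profile. The other list genes, the markers and the neighbours were named after their values were seen. Replicate numbers were not taken as pairs: deviations from group means of same-numbered libraries correlated at 0.834, 0.576 and 0.0379, below the limit of 0.1 for the last. That last pair shares the third run, and WT replicate 3 with CFAP20-KO replicate 2 of the same run was also below the limit (0.0974). CFAP20-KO replicates 2 and 3 correlated more with WT replicate 2 of the second run (0.576 and 0.646). The comparisons within the third run thus rest on the run number, not on this check. Python 3 scripts did the rest. Alternatives were other pseudocounts, no filter, median centring, the replicate block, the run covariate, other regions and leaving out each library.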

Additional observations from a re-analysis of the deposited data

Results flagged for a closer look

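JUN changed in opposite directions in the 2 runs that hold both groups. Its log2 body signal was 0.87 above WT in CFAP20-KO replicate 1 of the first run, and it was -0.52 and -0.42 relative to WT in CFAP20-KO replicates 2 and 3 of the third. The difference between runs was not tested, since the first run holds 1 library per group.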

How the results depend on the processing

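SPRY1, DUSP5 and ATF3 were lower in CFAP20-KO than in WT under all 17 alternatives. Without 1 library they ranged from -1.43 to -1.08, -1.26 to -0.72 and -1.14 to -0.49. These genes were picked on this contrast and the alternatives reuse the same values, so nothing is read from the shared sign. The replicate block and the fit without a filter leave the changes of these genes as they were. The count of 4 of the 5 genes lower in both runs was 4 under 6 of 7 alternatives chosen after seeing the data, and 3 over the first 3 kb. Of all 1760 genes, 381 were lower in both runs, 645 with median centring and 844 over the first 3 kb. NR4A1 was 0.41 over the first 3 kb, -0.85 with the run covariate and median centring, and -0.68 to 0.0101 without 1 library (highest without WT replicate 1). JUN was -0.0337 with median centring (with the replicate block too), -0.10 with the run covariate and median centring, and -0.37 (without CFAP20-KO replicate 1) to 0.45 without 1 library, also below 0 without WT replicate 2 (-0.0643). Median centring moved the median change of all genes from 0.17 to -0.02.

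Genes called higher and lower with limma, 0 and 0 in the planned comparison and without any 1 library, were 111 and 85 with the run covariate, 40 and 119 with median centring as well, and 72 and 56 when the run covariate was used on the mean of CFAP20-KO replicates 2 and 3. Under the replicate block 97 and 69 genes were called, or 29 and 73 with median centring too. In the list of 14, where calls of the 5 picked genes are counted and nothing is read from them, 3 were lower with the run covariate, 3 with median centring as well, 2 with that mean, 4 with the replicate block and 4 with the block and median centring. With the replicate block 1 was higher, DUSP8, and FOS was among the lower ones. Numbers do not pair these libraries.

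In the shape of the signal, the first 1 kb gave -0.52 for NR4A1 and -0.0767 for JUN, and 2 kb past the end gave -1.22 for NR4A1. Without 1 library the first part against the rest ranged from -0.57 to 0.18 for SPRY1, -0.11 to 0.19 for DUSP5 and -0.21 to 0.54 for JUN. Past the end the ranges were -0.62 to 0.27 for SPRY1, -0.47 to 0.13 for DUSP5, -0.22 to 1.15 for JUN and -0.27 to 0.23 for ATF3. The splice index differences of the first 3 DUSP5 introns ranged from -0.0890 to 0.00689, -0.135 to 0.0246 and -0.113 to 0.0283, turning positive without WT replicate 3 in each and, in the latter pair, also without CFAP20-KO replicate 1. Rescue against WT replicate 2 was 1.49 over the first 3 kb for NR4A1, and for ATF3 -0.0182 over the first 3 kb and -0.0241 with median centring. The cause of these shifts was not tested. Depth limits NR4A1, most in CFAP20-KO replicate 1, where its body signal was 1.22 at a step of 0.393. In the region past its end mean signal was a few steps per bin or less.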
